A study of Mus musculus with 6 samples.

Results

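The imprinted Dlk1-Dio3 locus of the mouse encodes one of the largest groups of microRNAs (miRNAs) of the genome, and its members were followed here in small RNA from extracellular vesicles of peripheral blood mononuclear cells (PBMCs). Members were chosen by name, as rows of the deposited table whose miRNA carries 1 of 54 hairpin names of the locus, with no measured value used. Earlier results of these data were known when the names were chosen. Of the 620 rows of the table, 49 were members, from 36 of those names, and the other 18 names are not analysed here. All 6 libraries came from wild-type mice. In 3 of them (control) the labels give no treatment beyond the word untreated, and in the other 3 they name a stimulation with IS, whose meaning is left undefined there. The series title names salvianolic acid B, and no library carries it as a treatment. No strain, age, dose, time, pooling or batch is given. Since nothing says that replicates are separate animals or cultures, a p-value here may reflect technical spread alone. The libraries held 125731 to 435468 counts, and 6 values in a row are always those of control 1, 2 and 3 followed by those of IS 1, 2 and 3.

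In this region 3 protein-coding genes, Dlk1, Rtl1 and Dio3, are expressed from the paternal chromosome, and the non-coding RNAs Meg3, Rian and Mirg, together with the miRNAs, from the maternal one. The miRNAs are best known from embryo, placenta and brain, where the transcription factor Mef2 drives the array from miR-379 to miR-410 in active neurons, and from blood stem cells. A miRNA is cut from a hairpin whose arms are named 5p and 3p, and it finds its target mRNAs chiefly by its seed, the bases 2 to 8.

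RefSeq (GRCm38.p6) gave a sequence and a position for 47 of the 49 members, and the exceptions were miR-485-5p and miR-487b-3p. All 47 lay on chromosome 12, at chr12:109580243-109743784, a span of 163.5 kb, with 43 on the plus strand and 4 on the minus strand. Of these rows, 9 lay antisense to an exon of Rtl1 and 2 in that exon on its own strand. Another 2 lay in introns of Rian, and 8 in introns and 4 in exons of Mirg. A further 22 lay in no gene annotated in GENCODE vM21, with miRNA and small nucleolar RNA genes left out of that comparison. Mature lengths ran from 18 to 25 bases, so levels of different members are compared without a length correction. The GC content ran from 23.8% in miR-369-3p to 68.2% in miR-370-3p (median 45.5%), against a median of 47.8% in the 436 other rows with a RefSeq sequence. A first base C was found in 6.38% of the members and in 22.0% of those other rows.

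The mature sequences of members whose levels are given library by library follow. They are written 5′ to 3′ in the order of the locus, with the seed in capitals.

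miR-493-5p: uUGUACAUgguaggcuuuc
miR-127-5p: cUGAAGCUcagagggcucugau
miR-127-3p: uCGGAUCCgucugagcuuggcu
miR-136-3p: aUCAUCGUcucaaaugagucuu
miR-370-3p: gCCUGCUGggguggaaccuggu
miR-379-5p: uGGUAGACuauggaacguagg
miR-411-5p: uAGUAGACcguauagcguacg
miR-299a-3p: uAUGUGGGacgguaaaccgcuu
miR-494-3p: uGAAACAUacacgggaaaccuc
miR-543-3p: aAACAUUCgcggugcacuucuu
miR-495-3p: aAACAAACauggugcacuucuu
miR-381-3p: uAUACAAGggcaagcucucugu
miR-382-5p: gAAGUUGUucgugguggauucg
miR-541-5p: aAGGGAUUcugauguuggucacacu
miR-409-3p: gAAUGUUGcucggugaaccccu
miR-369-3p: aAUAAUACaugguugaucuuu

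Among the 47 sequences only 2 seeds occurred in 2 members each. AUGUAAC was shared by miR-379-3p and miR-411-3p, and AUGUGGG by miR-299a-3p and miR-299b-3p. Of the 436 other rows with a RefSeq sequence, none carried either seed, and rows without a sequence could not be compared. Another 5 pairs of members had seeds that differ at 1 base, among them miR-379-5p with miR-411-5p and miR-300-3p with miR-381-3p. At the other end, miR-543-3p and miR-495-3p shared their last 12 bases, ggugcacuucuu, although their seeds differ.

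Several rows held nearly the same counts under different names, which bears on every count below. Where a second hairpin is annotated on the opposite strand, its mature miRNAs overlap those of the plus-strand hairpin. Such antisense rows are Mir3071 over Mir136 and Mir299b over Mir299a, and their sequences are shown to make the overlap visible.

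miR-299a-5p: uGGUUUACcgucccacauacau
miR-299b-5p: gGUUUACCgucccacauacau
miR-299b-3p: uAUGUGGGacgguaaacc
miR-136-5p: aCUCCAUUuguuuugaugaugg
miR-3071-3p: aUCAUCAAaacaaauggagucc
miR-3071-5p: aCUCAUUUgagacgaugaugga

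The 5p arm of miR-299b is the miR-299a-5p sequence from its base 2 onward, and the 18 bases of miR-299b-3p are the first 18 of miR-299a-3p. Both miR-299b rows held the same 7, 0, 44, 8, 13 and 3 counts in control 1 to 3 and IS 1 to 3, while miR-299a-5p held 7, 0, 52, 8, 20 and 3. These 3 rows were equal in 4 of 6 libraries. The row of miR-299a-3p was different, with 12, 3, 118, 17, 65 and 3 counts. For miR-136-3p the counts were 19, 0, 32, 4, 7 and 5, and its antisense partner miR-3071-5p had 19, 0, 28, 4, 6 and 5. For miR-136-5p they were 15, 8, 24, 23, 3 and 0, and miR-3071-3p had 15, 8, 27, 23, 4 and 7. Whether the counting used strand is not given in the sources used here, so reads of these hairpins and of their antisense partners cannot be told apart. The 4 antisense rows held 0.394% (control 2) to 6.25% (control 3) of the cluster's counts.

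The cluster took 0.343% (IS 2) to 0.864% (control 2) of the counts of a library. The summed level of all 49 members was 5600 (control 1), 8638 (control 2) and 5252 (control 3) CPM (counts per 1000000 counts of the library) and 5322 (IS 1), 3429 (IS 2) and 8216 (IS 3) CPM. In CPM, the highest and the next highest value thus came from different groups, and the groups overlapped over most of their range. Their means were 6497 ± 1863 CPM in control and 5655 ± 2411 CPM in IS (SD, n = 3 per group), a difference smaller than either SD. The IS minus control difference of -841 CPM was 229 CPM without control 2, 272 CPM without IS 2 and -2122 CPM without IS 3. Scaled by the TMM factors of the edgeR test, the sums were 6686, 7966 and 4665 in control and 6366, 3611 and 6668 in IS. Control 1 then took the second place, just above IS 3. Nearly identical rows outside the cluster also enter the library totals. With repeated rows of the whole table counted once, the sums were higher in every library. They were then 6518, 9564 and 5972 CPM in control and 6159, 4091 and 9225 CPM in IS. These values are a description, with no test. In vesicle RNA, fewer vesicles carrying a miRNA and fewer copies per vesicle cannot be told apart.

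**Figure D1:**
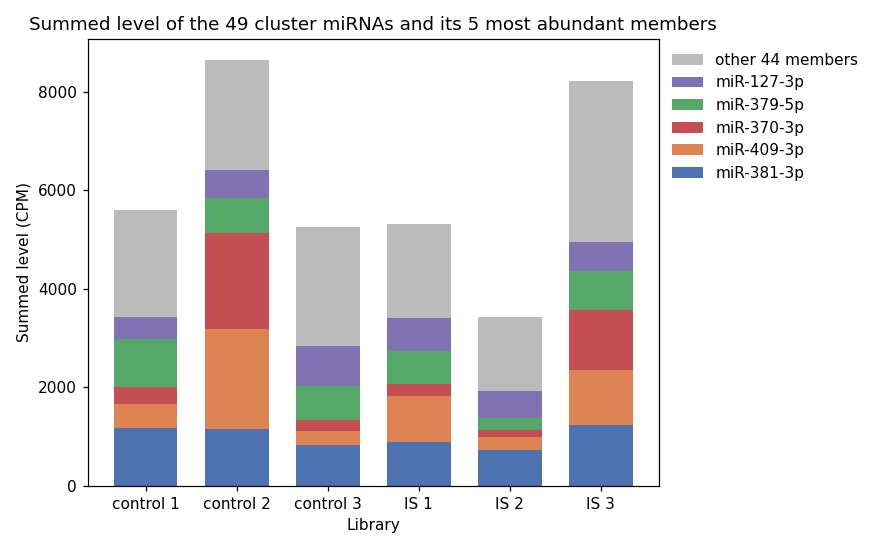
Summed level of the 49 members in CPM (vertical axis, from 0) in each of the 6 libraries, split into the 5 most abundant members and the other 44. Control 2 (8638 CPM) and IS 3 (8216 CPM) are the tallest bars, and in both miR-370-3p and miR-409-3p take wider bands than in the other libraries.

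The height of control 2 lay in miR-409-3p (2032 CPM there) and miR-370-3p (1951 CPM there). The level of miR-381-3p was 1148 CPM in control 2, below 1165 CPM in control 1 and 1233 CPM in IS 3. Without the leading trio of miR-381-3p, miR-370-3p and miR-409-3p, the summed levels were 3584, 3507 and 3925 CPM against 3257, 2301 and 4645 CPM. Control 2 was then the fourth of the 6 libraries, and the SD of the control libraries was 222 CPM. The 8 most abundant members together took 66.1% (control 3) to 89.7% (control 2) of the cluster's counts.

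Lists of miRNAs known from particular cells moved between libraries as well. The platelet and vessel wall list (miR-126a, miR-223, miR-191, miR-24 and miR-21a, all 5 with counts) summed to 51416 to 88274 CPM in control and 22312 to 79058 CPM in IS. As for the cluster in CPM, control 2 was highest, IS 3 next and IS 2 lowest. The neural list (6 of 6 names with counts) ran from 2891 to 6351 CPM in control and from 2209 to 6180 CPM in IS, again with control 2 highest and IS 2 lowest but with IS 1 in the second place. The muscle list (6 of 7, miR-208a without a row) ran from 366 to 2461 and from 1686 to 4859 CPM. The erythroid list (4 of 4) ran from 166074 to 309988 and from 192531 to 374647 CPM, with control 2 lowest and IS 2 highest. Its rows miR-486a-3p, miR-486a-5p and miR-486b-3p held nearly the same counts, so the same reads may enter this sum more than once. Of the blood cells named in the label, the lymphocyte list (5 of 5) ran from 1091 to 2551 and from 918 to 3014 CPM and the myeloid list (3 of 3) from 10696 to 25111 and from 10769 to 31265 CPM. The myeloid list shares miR-223 with the platelet and vessel wall list, so they are not separate readings. The liver list (3 of 3) summed to 24444 to 113075 and 32935 to 107612 CPM, and the fibroblast and smooth muscle list (5 of 5) to 9277 to 12281 and 7277 to 10658 CPM. What part any of these cells has in the cluster's levels was not tested.

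Whether vesicle levels of the cluster differ after IS stimulation is the comparison that the design poses, and none of its members passed the test. The edgeR quasi-likelihood test was run on all rows that passed a filter on low counts, which were 33.2% of the 620, and 25 of the 49 members (51.0%) were among them. Of all tested rows 0 (0%) had a Benjamini-Hochberg adjusted p under 0.05, and 0 of the 25 members did. Tests by limma and DESeq2 also called 0 members. An unadjusted p under 0.05 was found in the edgeR test for 3 of all tested rows (1.46%) and for 0 of the 25 members, whose smallest was 0.29 (miR-494-3p, adjusted p = 0.996). The IS libraries lay wholly above or below the control libraries in 3 of the tested rows (1.46%) and in 0 of the 25. Values above 0 on the log2 scale were found for 15 of the 25 members, against 52.9% of all tested rows. The median log2 fold change was 0.05 over the 25 members and 0.02 over all tested rows. Refitted on 5 libraries, scaling included, the members' median was -0.39, -0.30 and 0.22 without control 1, 2 and 3 and -0.46, 0.04 and -0.59 without IS 1, 2 and 3, where that of all tested rows was -0.27, -0.22, 0.05, -0.12, -0.09 and -0.23. With the scaling kept, the members' median was -0.03, 0.12, 0.20, -0.32, 0.09 and -0.16 in the same order. The median SE was 1.11 for the members and 0.76 for all. Only miRNAs with enough counts enter these figures, so they do not speak for the other 24 members.

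**Figure D2:**
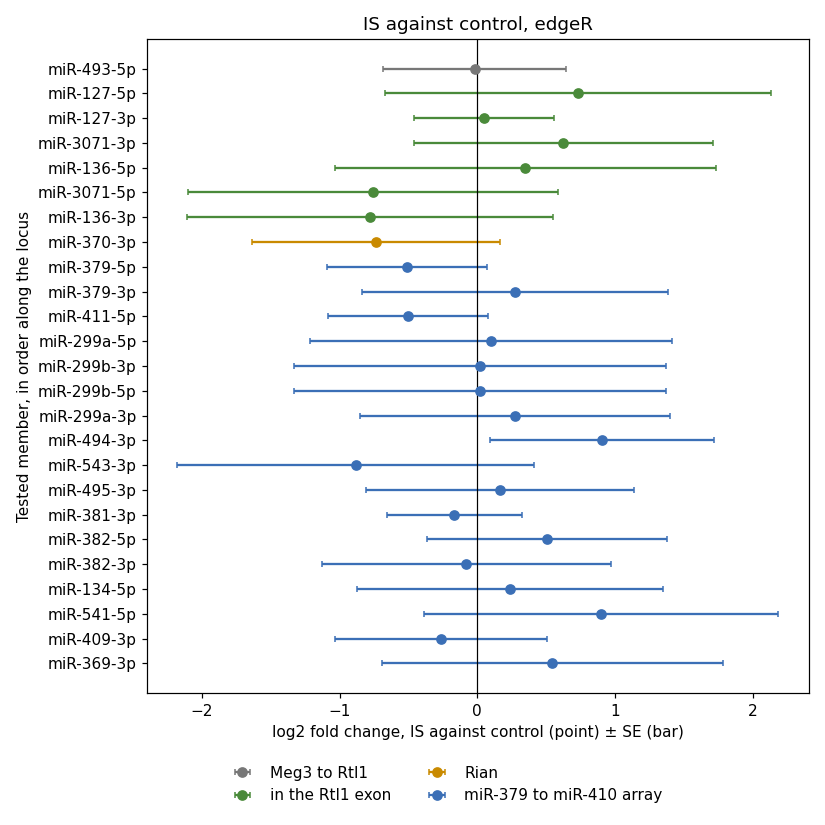
Log2 fold change of IS against control (horizontal axis, points) with its SE (bars) for the 25 tested members, in order along the locus (vertical axis) and coloured by place. The points run from -0.88 (miR-543-3p) to 0.91 (miR-494-3p), on both sides of 0 in the array from miR-379 to miR-410 and in the group of both strands of the Rtl1 exon.

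**Figure D3:**
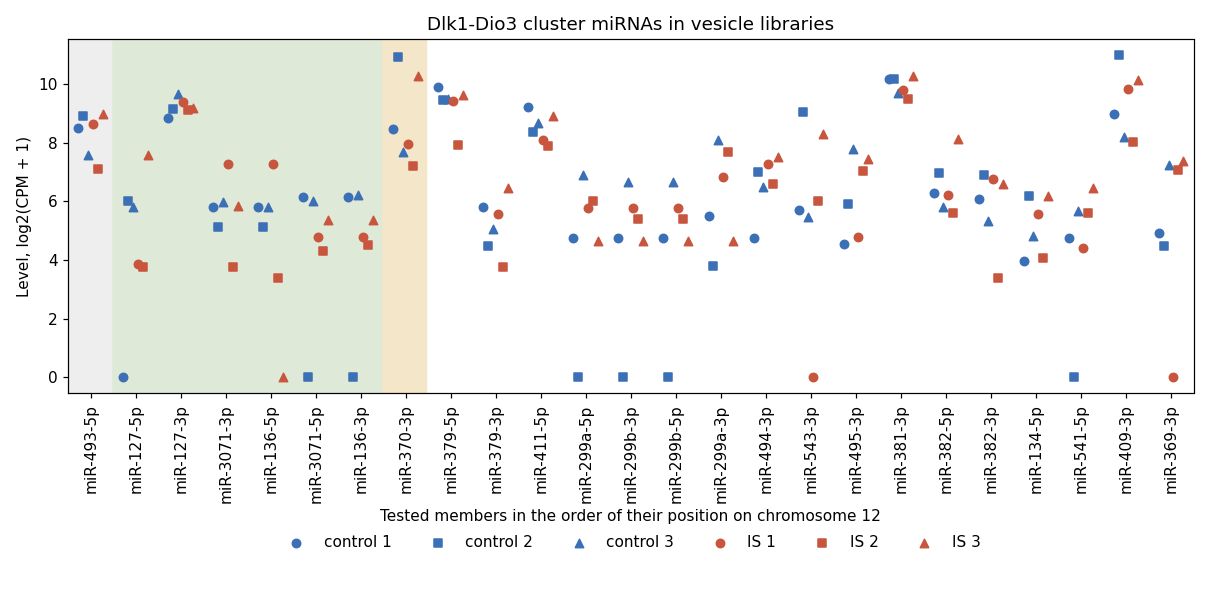
Level of each tested member as log2(CPM + 1) (vertical axis) in the 6 libraries, blue for control and red for IS, with a marker shape for each replicate number. Members are in the order of the locus, and the shading marks in turn the stretch from Meg3 to Rtl1 (grey), the Rtl1 exon, both strands (green), Rian (tan) and the array from miR-379 to miR-410 (white). Control 2 lies far above most libraries for miR-370-3p, miR-409-3p and miR-543-3p and at 0 for 6 members.

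The first stretch, between Meg3 and Rtl1, gave 2 rows, and miR-493-5p was the only one with enough counts to test. It lies at chr12:109580243-109580261 on the plus strand. Its level was 359, 480.4 and 188 CPM in control 1 to 3 and 395, 135.5 and 509 CPM in IS 1 to 3, so the groups overlapped almost fully. The means were 342.5 ± 147 and 347 ± 191.5 CPM, and the log2 fold change of -0.02 (SE 0.66) took the other sign under RLE scaling and with library totals alone.

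Antisense to Rtl1 lie the miRNAs that pair perfectly with the Rtl1 mRNA and can direct its cleavage, a control known from the placenta. Of the 9 rows antisense to Rtl1, 4 were tested, 3 with a log2 fold change above 0 and 1 below, and 0 passed. The 2 miR-3071 rows, on the Rtl1 strand, were tested as well and stood 1 on each side of 0. The leading one, miR-127-3p (chr12:109592888-109592909), varied little between libraries. It stood at 459, 565 and 799 CPM in control 1 to 3 and at 664, 551 and 581 CPM in IS 1 to 3. All 3 IS values lay within the range of the control values, and the means were 608 ± 174 and 599 ± 58.1 CPM. The log2 fold change was 0.05 (SE 0.51), and -0.02 with library totals alone.

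The opposite arm, miR-127-5p, was scarce and uneven, at 0, 63.8 and 55.1 CPM in control and 13.4, 12.6 and 190.9 CPM in IS. One IS library was above all others and the remaining IS libraries were below 2 of the 3 controls. Its log2 fold change of 0.73 (SE 1.40) was among the 3 largest positive ones, and it was -1.68 without IS 3. For miR-136-3p the levels were 70.3, 0 and 73.5 CPM in control and 26.8, 22.1 and 39.8 CPM in IS. Of the controls, 1 lay below and 2 above every IS library, and the log2 fold change was -0.78 (SE 1.33). Its repeat miR-3071-5p gave -0.76 (SE 1.34), with 70.3, 0 and 64.3 CPM in control and 26.8, 18.9 and 39.8 CPM in IS. Both turned positive (0.77 and 0.76) with limma on log2(TPM + 1). The plus-strand row miR-136-5p had 0.35 (SE 1.38), and its antisense partner miR-3071-3p had 0.63 (SE 1.08), with IS 1 highest in both at 154.2 CPM. In IS 3 they differed, with 0 counts for miR-136-5p and 7 for miR-3071-3p.

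The introns of Rian gave 2 rows, of which miR-370-3p (chr12:109618305-109618326) was tested. Its level differed widely between libraries, with 351, 1951 and 207 CPM in control 1 to 3 and 248, 144.96 and 1225 CPM in IS 1 to 3. A single library in each group, control 2 or IS 3, was far above the other 4. The means were 836 ± 968 CPM in control and 539.3 ± 596 CPM in IS, with SDs above the means. The log2 fold change of -0.74 (SE 0.90) was 0.47 without control 2 and -2.32 without IS 3, the latter with an edgeR p of 0.040 that Benjamini-Hochberg adjustment raised to 0.9996.

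The array from miR-379 to miR-410 held most of the cluster, with 34 rows, 17 of them tested. Among the 17, 11 log2 fold changes were above 0 and 6 below, with a median of 0.10, and 0 passed. Summed over its rows it stood at 4039, 5488 and 3693 CPM in control 1 to 3 and 3606, 2490 and 5528 CPM in IS 1 to 3, with overlapping groups.

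At the start of the array, miR-379-5p (chr12:109709065-109709085) had 954, 706 and 709.6 CPM in control and 677, 243 and 787 CPM in IS. IS 2 was the low value, and IS 3 lay among the controls. Its neighbour miR-411-5p, 1104 bases downstream with a seed that differs at 1 base, had 596, 332 and 404 CPM in control and 275, 236 and 485.2 CPM in IS. Both had their lowest level in IS 2 and their highest in control 1. Their log2 fold changes were -0.51 (SE 0.58) and -0.50 (SE 0.58), each within 1 SE of 0. They stayed negative with any 1 library left out, at -1.07 to -0.16 and -1.02 to -0.042. The scarce arm miR-379-3p had 0.27 (SE 1.11).

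Next in order come the miR-299 rows. miR-299a-3p was at 44.4, 12.8 and 271 CPM in control and 114, 205 and 23.9 CPM in IS. Control 3 and IS 2 were high and the remaining libraries low, so the spread within each group exceeded the difference between the means (109.4 ± 141 and 114 ± 90.5 CPM). The log2 fold change was 0.27 (SE 1.12), with 0.10 (SE 1.31) for miR-299a-5p and 0.02 (SE 1.35) for both miR-299b rows, whose counts are identical.

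The largest positive value of the cluster was that of miR-494-3p, at 25.9, 127.5 and 89.6 CPM in control and 154.2, 94.5 and 183 CPM in IS. Of the IS libraries, 2 lay above all controls and the other between them. The means were 81.0 ± 51.4 and 143.9 ± 45.1 CPM, and the log2 fold change of 0.91 (SE 0.81) ran from 0.15 to 1.35 with a library left out. The next largest, miR-541-5p, had 25.9, 0 and 50.5 CPM in control and 20.1, 47.3 and 87.5 CPM in IS, which overlap. Its log2 fold change was 0.90 (SE 1.29), or 0.14 without control 2, the library in which it had no count.

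In the middle of the array, a pair of neighbours differed in which control library was high. miR-543-3p stood at 51.8, 531 and 43.6 CPM in control and 0, 63.0 and 310.2 CPM in IS. Control 2 (125 counts) and IS 3 (39 counts) held most of it, as for miR-370-3p. miR-495-3p, 1469 bases further on with the same last 12 bases, stood at 22.2, 59.5 and 218.2 CPM in control and 26.8, 129.2 and 175 CPM in IS, with control 3 highest and control 2 among the 3 lowest libraries. IS 3 was the second highest library for both. Their log2 fold changes were -0.88 (SE 1.30), the largest negative one of the cluster, and 0.17 (SE 0.98). For miR-543-3p it was 0.95 without control 2 and -2.67 without IS 3.

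The most abundant member, miR-381-3p (chr12:109726870-109726891), ranked 60 among the 620 rows by mean CPM. It is 1 of the miRNAs of the array that neuronal activity induces. It had 1165, 1148 and 831 CPM in control and 898, 725 and 1233 CPM in IS, a narrow range across all 6 libraries. The means were 1048 ± 188 and 952 ± 258 CPM and the log2 fold change -0.17 (SE 0.49).

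Downstream of it, miR-382-5p had 77.7, 123 and 55.1 CPM in control and 73.7, 47.3 and 278 CPM in IS. IS 3 was the highest library and the remaining IS values lay within or below the controls. Its log2 fold change was 0.51 (SE 0.87), and that of its other arm miR-382-3p was -0.08 (SE 1.05). For miR-134-5p, which limits the size of dendritic spines in neurons through the kinase Limk1, the value was 0.24 (SE 1.11).

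At the end of the array, miR-409-3p (chr12:109743204-109743225) lies in an intron of Mirg. It had 499.4, 2032 and 289 CPM in control and 918, 258 and 1113 CPM in IS, with control 2 the highest and IS 2 the lowest. The means were 940.3 ± 951 and 763 ± 448 CPM. The log2 fold change of -0.26 (SE 0.77) was 0.51 without control 2 and 0.14 with a replicate block. Only 240 bases downstream, miR-369-3p had 29.6, 21.3 and 149 CPM in control and 0, 132 and 167 CPM in IS, with control 2 the lowest control and IS 1 at 0. Its log2 fold change was 0.55 (SE 1.24), and -0.73 with limma on log2(TPM + 1).

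The make-up of the cluster differed between libraries too. Its leading member miR-381-3p took 13.3 to 21.1% of the cluster's counts. The trio miR-370-3p, miR-409-3p and miR-543-3p, picked after the values were seen, took 16.1, 52.3 and 10.3% of the cluster's counts in the control libraries and 21.9, 13.6 and 32.2% in the IS libraries. Another such trio, miR-299a-3p, miR-369-3p and miR-495-3p, took 1.72, 1.08 and 12.2% in control and 2.65, 13.6 and 4.45% in IS. Control 2 was high for the former trio and low for the latter, and control 3 and IS 2 were the reverse. The highest library of a tested member was IS 3 for 8, control 3 for 7, control 2 for 5, control 1 for 3, IS 1 for 2 and IS 2 for 0. Over all tested miRNAs these libraries were highest for 25.2, 18.9, 20.9, 7.28, 8.74 and 18.9%. In control 2, 6 of the 25 had no count, against 3.88% of all tested rows, the members included. These were miR-136-3p, miR-299a-5p, their 3 repeats and miR-541-5p. All 6 were scarce, with 58 to 90 counts over all libraries, and rows of like abundance outside the cluster were not compared. Control 2 was not the shallowest library, at 235233 counts against 125731 in IS 3, where 1 of the 25 had no count.

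Which arm of a hairpin reached the vesicles was read from the 13 hairpins with both arms listed, of which 12 had 20 or more counts. The more abundant arm held a median of 77.1% of the counts of both arms. The median was 85.5% over the 10 hairpins left without miR-299b and miR-3071, whose counts largely repeat those of other members. In 4 hairpins the more abundant arm held over 90%, with 95% exact binomial intervals that cover counting error only. These were miR-409-3p with 99.5% (98.95 to 99.85%), miR-411-5p with 95.6% (93.7 to 97.1%), miR-379-5p with 94.8% (93.2 to 96.0%) and miR-127-3p with 93.2% (91.5 to 94.7%). The same arm led in all 6 libraries for each of these. IS 3 was the exception in degree for miR-127-3p, at 75.3% of 97 counts, where the other libraries had 89.9 to 100%.

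Other hairpins used both arms. In miR-382 the 5p arm held 59.0% (52.3 to 65.4%), from 40.7% in IS 1 to 74.5% in IS 3 among the 5 libraries with 20 or more counts. In miR-136 it held 52.1% (43.5 to 60.7%), with 44.1% in control 1, 42.9% in control 3 and 85.2% in IS 1. For miR-299a the 3p arm held 70.8% (65.35 to 75.8%) and for miR-369 83.4% (77.0 to 88.7%). Both arms of miR-299b had identical counts, so its 50% is not a reading of arms. Reads of miR-299a and miR-136 cannot be told apart from those of their antisense partners. Their arm shares carry that limit, which the intervals do not cover.

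**Figure D4:**
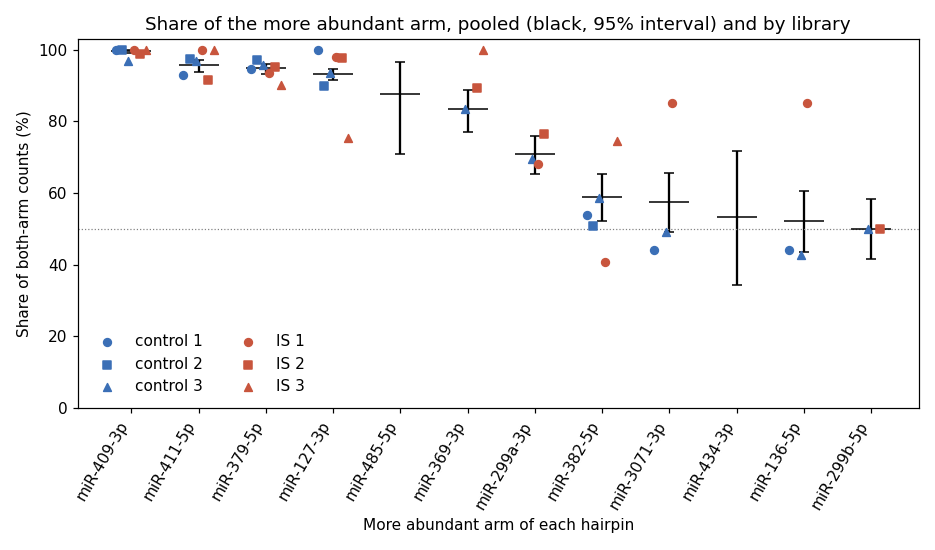
Share of the counts of both arms that the more abundant arm held (vertical axis, %) for the 12 hairpins with 20 or more counts. Black bars give the pooled share with its 95% exact binomial interval, and coloured points the libraries with 20 or more counts. The shares fall from 99.5% for miR-409-3p to 50% for miR-299b-5p, and IS 1 lies apart at 85.2% for miR-136-5p and miR-3071-3p.

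The 24 members that were not tested had 1 to 67 counts over all libraries, 15 of them 10 or more and 9 fewer. Among them were miR-487b-3p with 67 counts, miR-323-3p with 43, miR-433-3p with 31 and miR-485-5p and miR-369-5p with 28 each. A count in all 6 libraries was found for 15 of the 49 members and in a single library for 6. One count was worth 2.30 CPM in the deepest library (control 3) and 7.95 CPM in the shallowest (IS 3), and a count of 0 there allows up to 3 counts, 6.89 and 23.9 CPM. The number of members with a count was 34, 28 and 44 in the control libraries and 28, 39 and 30 in the IS libraries, or 35.3 ± 8.08 and 32.3 ± 5.86 (SD, n = 3 per group), a difference of -3 that was 1.33 without control 3. Control 3 and IS 2, the deepest libraries, had the most.

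In 2 of the untested members the groups did not overlap, which also held for 10 of the 620 rows (1.61%). They are named because their number is small, after their values were seen. For miR-1197-3p no count was listed in any of the 3 control libraries, while IS 1 to 3 had 9, 3 and 4 counts. That is 60.3, 9.45 and 31.8 CPM, and for the controls a count of 0 allows up to 11.1, 12.8 and 6.89 CPM. IS 2 lay below the limits of control 1 and control 2 and above that of control 3. With no filter the edgeR test gave it a Benjamini-Hochberg adjusted p of 0.886 (unadjusted 0.022), and DESeq2 0.9997 (unadjusted 0.0080). In that edgeR fit 13 of 620 rows (2.1%) had an unadjusted p under 0.05, and the other member among them was miR-377-3p (0.014). For miR-485-5p there were 15, 3 and 6 counts in control and 0, 3 and 1 in IS, with an adjusted p of 0.886 in the edgeR test without a filter. That is 55.5, 12.8 and 13.8 CPM against 0, 9.45 and 7.95 CPM. Control 2 and IS 2 had the same 3 counts and differ in CPM only through their library totals. The count of 0 in IS 1 allows up to 20.1 CPM, above control 2 and control 3. DESeq2, run on all rows with a count, called 0 of the 49 members at an adjusted p under 0.05 and 2 at an unadjusted p under 0.05, miR-1197-3p and miR-377-3p, where 14 of 618 rows (2.27%) had one. All 18 counts of miR-377-3p came from IS 3.

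Other imprinted miRNAs served as a comparison, namely miR-335, miR-296, miR-298 and the family names miR-297, miR-466, miR-467 and miR-669 of the Sfmbt2 intron. That intron's miRNAs are expressed from the paternal chromosome in the placenta. The families were taken by name, and whether each row comes from the intron was not checked. For miR-483 and miR-675, looked for as well, no row was found. The comparison set had 42 rows, of which only 2 were tested. These were miR-466i-5p at 0.59 (SE 0.62) and miR-669c-5p at -0.08 (SE 0.80), and 0 passed. Of 4 further names of the Dlk1-Dio3 locus, miR-412, miR-453, miR-1188 and miR-1906, a single row was found, miR-412-5p with 1 count in control 1.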

How the data were processed

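Per the labels' protocols, vesicle RNA of mouse PBMCs was purified by exoRNeasy Maxi, and 6 libraries were prepared by NEBNext Multiplex Small RNA. The submitters' processing notes name CASAVA 1.8 and Bowtie, with no role. For the build, the miRBase release and strand use, nothing is given in these sources. The authors deposited, for each library and each of 620 miRNAs, a read count and a TPM. The deposited TPM is the count over the library total, times 1000000 (largest difference 4.8e-10), and is called CPM here. Molecular identifiers were not used, so floors and intervals cover counting error only.

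Counts were tested with edgeR 4.0.16 (quasi-likelihood F test, TMM factors, filterByExpr at a minimum count of 10 and a minimum total of 15), IS against control, and p-values were adjusted by Benjamini-Hochberg over all tested miRNAs. SE is the absolute log2 fold change divided by the root of F. The script was tested on simulated data. Alternatives were RLE factors, unscaled totals, no filter, at least 10 CPM in 3 libraries, a replicate block, leaving out a library (scaling refitted or kept), DESeq2 1.42.0, limma 3.58.1 on log2(TPM + 1) or log2(TPM + 0.5), other thresholds and repeated rows counted once. Work used R 4.3.3, Python 3.11.15, scipy 1.17.1 and matplotlib 3.10.9.

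All tested members are named, with values by library for the 12 of highest mean CPM and for the 3 largest positive and 3 largest negative fold changes. Library values of miR-369-3p and of the overlapping rows were added after they were seen. Sequences and positions came by name from RefSeq (GRCm38.p6) and gene models from GENCODE vM21, which need not match the authors' build. Members and lists were chosen with earlier results of these data known.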

Additional observations from a re-analysis of the deposited data

How the results depend on the processing

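The number of members past the threshold was 0 under every alternative run. The cluster's median log2 fold change of 0.05 lay between -0.024 (library totals alone) and 0.16 (limma on log2(TPM + 1)) with all 6 libraries, and between -0.59 (without IS 3) and 0.22 (without control 3) with a library left out. The replicate numbers are not said to pair libraries. Deviations of same-numbered libraries correlated at 0.314, -0.327 and -0.0544, and with a replicate block the median was 0.14 and the number past the threshold 0. The IS minus control difference in the summed level (-841 CPM), in members with a count (-3) and the median arm share (77.1%) moved by less than 1 SD between libraries under the other filters, scalings and left-out libraries run for them, although signs turned. With a library left out the difference in the summed level ran from -2122 to 272 CPM and that in members with a count from -6.67 to 1.33. The median arm share was 85.5% without miR-299b and miR-3071, an alternative chosen after the data were seen.

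Of the 25 tested members, 4 kept their sign throughout (miR-379-5p, miR-411-5p, miR-494-3p and miR-541-5p), and the sign of 19 turned with a library left out. Their ranges with a library left out were -0.39 to 0.22 (miR-127-3p), -1.68 to 1.23 (miR-127-5p), -0.54 to 0.98 (miR-134-5p), -3.08 to 0.94 (miR-136-5p), -0.53 to 1.965 (miR-299a-3p), -0.77 to 1.71 (miR-299a-5p), -0.87 to 1.43 (both miR-299b rows), -0.95 to 1.16 (miR-3071-3p), -0.026 to 1.77 (miR-369-3p), -2.32 to 0.67 (miR-370-3p), -0.63 to 0.90 (miR-379-3p), -0.59 to 0.073 (miR-381-3p), -0.96 to 0.47 (miR-382-3p), -0.73 to 0.89 (miR-382-5p), -0.97 to 0.83 (miR-409-3p), -0.67 to 0.36 (miR-493-5p), -0.50 to 1.36 (miR-495-3p) and -2.67 to 1.08 (miR-543-3p). Without control 2 the sign turned in 13 members, or 12 with the scaling kept, and without control 3 in 0.

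Signs also turned with all 6 libraries in 11 members. With library totals alone the values were -0.024 (miR-127-3p), -0.059 (miR-299a-5p), -0.13 (both miR-299b rows) and 0.012 (miR-493-5p). With the filter of 10 CPM they were -0.0028 (miR-127-3p) and -0.034 (both miR-299b rows). For miR-493-5p they were 0.018 with RLE factors, 0.026 with no filter, 0.0017 with repeated rows counted once and 0.050 with DESeq2. With the replicate block they were -1.16 (miR-136-5p), 0.019 (miR-3071-5p) and 0.14 (miR-409-3p). With limma on log2(TPM + 1) and + 0.5 they were 0.77 and 1.08 (miR-136-3p), -2.03 and -2.38 (miR-136-5p), -0.020 and -0.028 (miR-3071-3p), 0.76 and 1.07 (miR-3071-5p), and -0.73 and -1.05 (miR-369-3p). Leaving a library out moved the median over all tested miRNAs as well, from 0.02 to between -0.27 and 0.05 with the scaling refitted. The cause was not tested. An SE with a median of 1.11 and scarce counts limit what these 3 libraries per group can show.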
